A study of Mus musculus with 2 samples.

Results

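Dense compact peaks of H3K4me3, the trimethylation of lysine 4 of histone H3, were the subject here: stretches of 1000 to under 5000 bp on chromosomes 1 to 19 that lay at the end of a protein-coding gene and carried at least 0.19 sequenced tags per bp. They were selected on the tags per bp of the same library that is described, so their tag density, and the fold enrichment that goes with it, describe the choice and support nothing. A peak was assigned to a gene if 1 bp or more of it fell within the stretch of 1000 bp either side of the start or end that RefSeq gives the gene in GRCm38.p6, the assembly that mm10 names. By this rule there were 1196 dense compact peaks. They made up 12.2% of the 9820 peaks of that length at coding gene ends (exact 95% interval 11.5 to 12.8%), and the whole list held 19265 peaks. The 1196 peaks lay at 1597 coding genes, which is 13.4% (12.8 to 14%) of the 11941 coding genes with any peak at an end.

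The study examined where this mark lies in mouse neural stem cells. It has 1 H3K4me3 library, titled "con", and 1 input library of sonicated chromatin without the mark's pulldown, both from adult neural progenitor cells kept in N2 medium with EGF and bFGF, growth factors that hold progenitors in division, and given no treatment. The labels do not say what "con" stands for, and the peak list's own header names the library after EGF; strain, sex, passage and the number of animals are not given either. After filtering, 18156769 H3K4me3 tags and 17831241 input tags were left, and with 1 library there is no replicate error and no p-value for any value that follows.

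H3K4me3 is laid down by the SET1 and MLL methyltransferase complexes and sits on the nucleosomes that flank the start of active and poised genes. In mammals it follows CpG islands, stretches rich in unmethylated CpG dinucleotides that hold the promoters of most housekeeping genes and of many developmental genes. Short marked regions are the usual form at housekeeping genes, while regions of many kilobases are known at genes that define a cell type. In a pool of cells, more cells with the mark and more mark per cell cannot be told apart, and 1 tag was kept per position, which limits the counts of the strongest peaks.

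The promoters of the densest members are shown because they carry the sequence features compared further on. Each run is the RefSeq window (GRCm38.p6) from 250 bases before to 50 bases after the annotated start of transcription, written 5′ to 3′ on the gene's strand. Capitals mark every match, on either strand, to 1 of the 10 motifs spelled out further on. The first 6 are the densest peaks at a single coding gene, and all lie on chromosome 10. Pym1, whose product takes exon junction complexes off messenger RNA, lies on the plus strand at chr10:128748205-128748504. Atp5b, the catalytic beta subunit of the mitochondrial ATP synthase, lies on the plus strand at chr10:128083057-128083356, and Llph on the plus strand at chr10:120226810-120227109. Zdhhc17, a palmitoyltransferase, lies on the minus strand at chr10:111010017-111010316. Ptges3, the Hsp90 co-chaperone p23 in protein nomenclature, lies on the plus strand at chr10:128058732-128059031, and Cct2, a subunit of the cytosolic chaperonin, on the minus strand at chr10:117063326-117063625.
Pym1: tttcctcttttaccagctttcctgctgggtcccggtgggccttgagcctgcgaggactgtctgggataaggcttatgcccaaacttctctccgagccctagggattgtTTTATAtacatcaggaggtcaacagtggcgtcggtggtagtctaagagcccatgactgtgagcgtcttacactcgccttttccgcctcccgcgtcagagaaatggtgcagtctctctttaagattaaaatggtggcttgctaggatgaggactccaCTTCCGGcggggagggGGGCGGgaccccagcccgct
Atp5b: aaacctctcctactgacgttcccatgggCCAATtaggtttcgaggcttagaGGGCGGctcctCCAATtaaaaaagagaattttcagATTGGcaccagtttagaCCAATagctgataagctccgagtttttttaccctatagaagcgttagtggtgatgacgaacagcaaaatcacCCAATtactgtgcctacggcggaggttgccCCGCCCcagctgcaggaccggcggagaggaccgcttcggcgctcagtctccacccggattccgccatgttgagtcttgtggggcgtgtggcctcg
Llph: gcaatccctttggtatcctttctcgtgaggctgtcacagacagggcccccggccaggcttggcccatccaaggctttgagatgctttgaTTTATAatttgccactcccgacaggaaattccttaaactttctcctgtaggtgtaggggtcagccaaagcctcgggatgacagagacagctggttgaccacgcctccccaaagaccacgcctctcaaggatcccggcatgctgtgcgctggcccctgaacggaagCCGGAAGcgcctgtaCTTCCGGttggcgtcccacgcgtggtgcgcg
Zdhhc17: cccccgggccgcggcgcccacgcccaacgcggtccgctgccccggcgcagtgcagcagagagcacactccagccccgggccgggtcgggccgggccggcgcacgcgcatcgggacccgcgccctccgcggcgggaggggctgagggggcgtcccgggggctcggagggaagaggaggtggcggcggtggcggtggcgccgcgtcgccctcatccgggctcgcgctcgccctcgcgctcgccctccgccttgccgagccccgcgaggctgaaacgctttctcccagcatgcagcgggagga
Ptges3: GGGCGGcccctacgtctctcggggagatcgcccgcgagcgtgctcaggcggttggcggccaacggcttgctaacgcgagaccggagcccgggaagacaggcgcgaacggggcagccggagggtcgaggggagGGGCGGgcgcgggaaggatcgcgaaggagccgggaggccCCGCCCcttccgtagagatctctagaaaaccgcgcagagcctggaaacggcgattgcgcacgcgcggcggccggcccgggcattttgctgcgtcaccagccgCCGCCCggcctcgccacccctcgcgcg
Cct2: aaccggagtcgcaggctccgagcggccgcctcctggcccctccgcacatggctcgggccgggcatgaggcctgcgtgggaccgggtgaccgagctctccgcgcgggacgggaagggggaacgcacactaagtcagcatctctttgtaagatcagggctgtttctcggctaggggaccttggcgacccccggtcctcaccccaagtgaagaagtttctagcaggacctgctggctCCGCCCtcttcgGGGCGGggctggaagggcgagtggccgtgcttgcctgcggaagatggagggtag

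The next windows show how 1 peak can cover the starts of 2 coding genes. Rpl41, a protein of the large ribosomal subunit, at chr10:128549119-128549418, and the zinc finger gene Zc3h10, at chr10:128547697-128547996, both lie on the minus strand under 1 peak of 3846 bp with 1003 tags. Wdr12, a ribosome assembly factor, lies on the minus strand at chr1:60098085-60098384, and Carf, a calcium-responsive transcription factor, on the plus strand at chr1:60097997-60098296, so that their windows overlap under 1 peak of 2857 bp with 719 tags.
Rpl41: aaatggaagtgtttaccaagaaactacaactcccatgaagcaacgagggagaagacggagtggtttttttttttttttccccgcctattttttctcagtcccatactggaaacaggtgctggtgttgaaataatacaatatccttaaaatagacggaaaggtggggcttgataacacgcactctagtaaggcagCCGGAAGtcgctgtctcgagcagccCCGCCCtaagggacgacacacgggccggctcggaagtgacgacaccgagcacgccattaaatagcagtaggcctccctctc
Zc3h10: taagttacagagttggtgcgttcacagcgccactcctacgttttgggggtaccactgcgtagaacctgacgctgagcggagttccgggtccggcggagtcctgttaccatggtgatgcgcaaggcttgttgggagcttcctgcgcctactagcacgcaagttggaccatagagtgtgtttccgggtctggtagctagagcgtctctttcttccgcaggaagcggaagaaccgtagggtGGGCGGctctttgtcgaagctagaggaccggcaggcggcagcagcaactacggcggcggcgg
Wdr12: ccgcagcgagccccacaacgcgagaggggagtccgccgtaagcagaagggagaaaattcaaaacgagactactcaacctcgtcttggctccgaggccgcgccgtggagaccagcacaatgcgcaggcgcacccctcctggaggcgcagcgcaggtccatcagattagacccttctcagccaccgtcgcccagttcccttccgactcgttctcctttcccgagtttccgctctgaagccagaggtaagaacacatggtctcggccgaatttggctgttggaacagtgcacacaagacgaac
Carf: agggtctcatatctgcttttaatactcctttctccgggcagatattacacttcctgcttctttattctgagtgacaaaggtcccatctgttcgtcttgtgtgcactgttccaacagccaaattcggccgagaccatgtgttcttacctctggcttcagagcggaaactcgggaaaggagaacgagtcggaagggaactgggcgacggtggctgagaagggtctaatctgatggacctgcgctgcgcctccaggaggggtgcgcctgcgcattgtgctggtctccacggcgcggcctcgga

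The last windows belong to the densest peaks at a single coding gene outside the end of chromosome 10 and were added after the values were seen. Mex3a, an RNA-binding protein, lies on the plus strand at chr3:88531696-88531995, and Ppig, a cyclophilin that associates with splicing factors, on the plus strand at chr2:69722838-69723137.
Mex3a: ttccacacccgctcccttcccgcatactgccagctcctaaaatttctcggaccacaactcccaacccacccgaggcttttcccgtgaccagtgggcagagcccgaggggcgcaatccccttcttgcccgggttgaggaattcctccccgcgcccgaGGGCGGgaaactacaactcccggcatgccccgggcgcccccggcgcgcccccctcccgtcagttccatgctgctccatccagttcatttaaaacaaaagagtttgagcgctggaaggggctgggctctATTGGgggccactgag
Ppig: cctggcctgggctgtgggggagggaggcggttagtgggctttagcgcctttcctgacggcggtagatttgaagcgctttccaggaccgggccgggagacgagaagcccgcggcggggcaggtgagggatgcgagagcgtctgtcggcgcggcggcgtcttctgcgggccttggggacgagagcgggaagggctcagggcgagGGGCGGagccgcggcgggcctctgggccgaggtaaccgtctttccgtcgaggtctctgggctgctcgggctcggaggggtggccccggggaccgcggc

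These windows were unlike in composition. The ratio of observed to expected CpG was 0.603 at Pym1 and 0.669 at Llph, with 14 and 17 CpG in 300 bases, and 1.14 at Ptges3 and 0.987 at Zdhhc17, with 46 and 47. The ETS motif stood within the 50 bases after the start in both Pym1, with 1 match, and Llph, with 1 match in each direction. Atp5b held 5 NFY motifs in the 2 directions. The windows of Zdhhc17, Wdr12 and Carf held none of the 10 motifs.

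The dense compact peaks were long and deep for compact peaks, as the rule makes them. Their median length was 2734.5 bp (1199 to 4944 bp), their median tag count 563 (259 to 1163) and their median density 0.202 tags per bp (0.19 to 0.320). The 8624 other compact peaks at coding gene ends had medians of 2069 bp, 306 tags and 0.146 tags per bp. The authors' fold enrichment over the input had a median of 48.5 (10.7 to 77.4) at the dense peaks and 38.2 at the others. The dense peaks held 14.6% of all tags in peaks on 9.45% of the length in peaks. The share that was dense was larger among longer peaks, from 0.364% of peaks of 1000 to under 1500 bp to 12% of those from 2000 to under 2500 bp and 26.8% of those from 4000 to under 5000 bp. Length therefore goes with density, and the comparisons of shared ends, CpG content, motifs and non-coding ends were also made within bins of length. The comparisons of genes and gene lists were not.

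**Figure D1:**
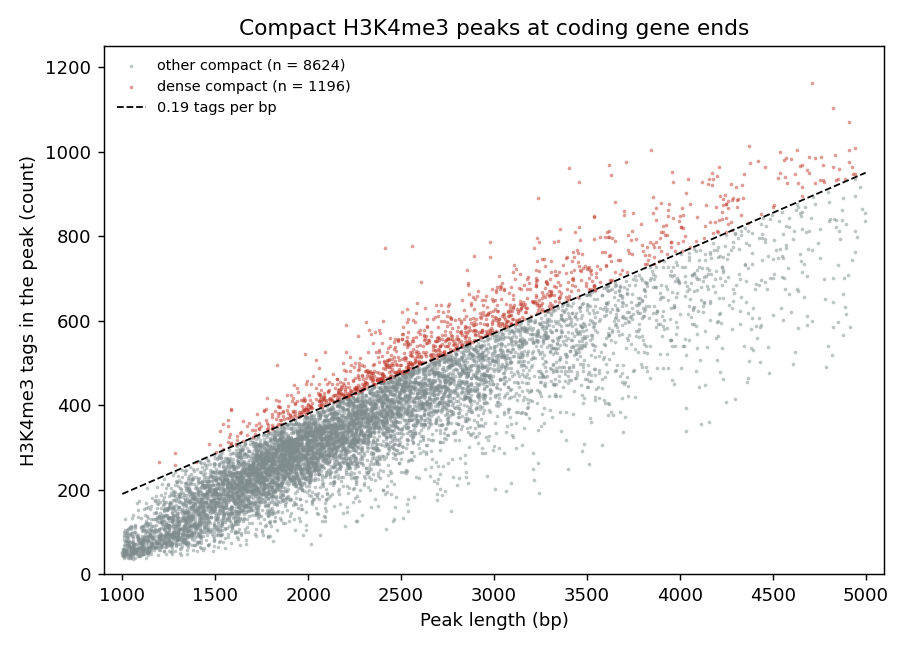
Tag count (vertical axis) against length in bp (horizontal axis) for each compact H3K4me3 peak at a coding gene end in the 1 library; red points are the 1196 dense compact peaks, grey points the 8624 others, and the dashed line is the bound of 0.19 tags per bp. The red points lie above the line by definition, and few of them are shorter than 1500 bp.

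The densest peak, at Pym1, held 773 tags on 2414 bp, which is 0.320 tags per bp at a fold enrichment of 66.1. The peak shared by Eef1akmt3, a methyltransferase of elongation factor 1A, and Mettl1, the tRNA m7G methyltransferase, followed with 777 tags on 2557 bp (0.304 tags per bp, fold 35.9). The peak at the myosin light chain genes Myl6 and Myl6b held 961 tags on 3405 bp (0.282 tags per bp). Atp5b had 0.275, Llph 0.271, Zdhhc17 0.268, Ptges3 0.268 and Cct2 0.268 tags per bp. The shared peak of Tbk1, a kinase of innate immune signalling, and Xpot, the exporter of tRNA, had 0.266, and Smarcc2, a core subunit of the SWI/SNF remodeller, had 0.264 tags per bp.

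These 10 densest peaks all lay on chromosome 10 beyond 110 Mb, and 15 of the 20 densest did. On that distal part, which was delimited after the data were seen, 66 of 112 compact peaks at coding gene ends were dense, 58.9% (49.2 to 68.1%). On the rest of the autosomes 1130 of 9708 were, which is 11.6%, and on chromosome 10 before 110 Mb 47 of 418 (11.2%). The median density was 0.203 tags per bp on distal chromosome 10 and 0.152 on the other autosomal stretches, but the median fold enrichment was 40.2 and 39.3. Fold enrichment is a ratio to the input and tags per bp is not. How far that ratio follows the input of each region was not tested. The median ratio of tags per kb to fold was 4.93 on distal chromosome 10 and 3.90 elsewhere on the autosomes.

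Of 234 stretches of 10 Mb with at least 10 compact peaks, the 2 on distal chromosome 10 had the highest median densities, 0.204 and 0.203, and the other stretches ran from 0.0948 to 0.178. Their ratios of tags per kb to fold, 4.99 and 4.75, also lay above the range of the others, 3.39 to 4.60. The 66 dense peaks there lay at 75 coding genes. Among these, Mdm2, the ubiquitin ligase of p53, had 0.240 tags per bp at a fold of 47.3, the shared peak of Kif5a, a neuronal kinesin, and Dctn2 0.262 at 55.8, and Cand1, an exchange factor of cullin ligases, 0.263 at 52.0. Cdk4, the G1 kinase, chosen here after its value was seen, had 0.248 at 39.2. The DNA content of the region was not measured, and its part in these densities was not tested. The results on shared ends, promoters and gene lists are therefore given with and without distal chromosome 10 where they differ.

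No compact peak at a coding gene end on the X chromosome was dense. There were 322 such peaks, and the exact 95% interval of a share of 0 reaches 1.14%; the highest density was 0.183. The median density on X was 0.0969 tags per bp and the median fold 24.6. On X both measures were lower, with a ratio of 3.94, near that of the autosomes. The sex of the animals is not given, and the part of X copy number in these values was not tested.

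**Figure D2:**
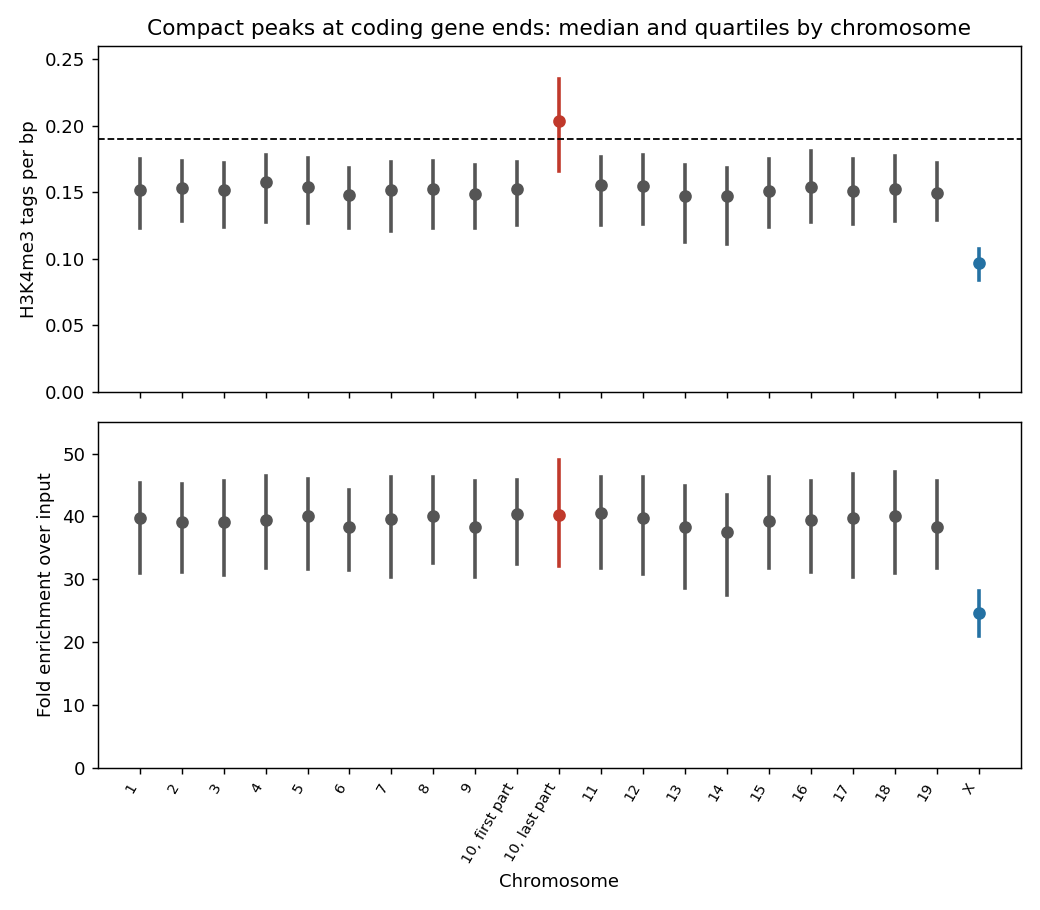
Median (points) and quartiles (bars) of tags per bp (upper panel) and of fold enrichment over the input (lower panel) for compact peaks at coding gene ends on each chromosome, with chromosome 10 split at 110 Mb; the dashed line is the bound of 0.19 tags per bp. The last part of chromosome 10 (red) has a median of 0.203 tags per bp against 0.152 for the other autosomal peaks at a like fold, and X (blue) is low in both panels.

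Outside distal chromosome 10 the densest peak lay at Mex3a, with 944 tags on 3628 bp (0.260 tags per bp, fold 58.6). Next came the shared peak of Inpp5b, an inositol polyphosphate phosphatase, and Mtf1, the metal-responsive transcription factor, and that of Ncam1, the neural cell adhesion molecule, both at 0.252 tags per bp. Carf and Wdr12 shared a peak at 0.252. Ppig had 0.249, Hdhd3 0.248, Clhc1 and Rps27a, which encodes a fusion of ubiquitin and a ribosomal protein, 0.248, Ino80, the ATPase of a chromatin remodeller, 0.246, Serf2 and Serinc4 0.245 and Lasp1, an actin-binding protein, 0.243. These names too were chosen after the values were seen.

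Ranking by fold enrichment gave other genes. The highest fold among the dense peaks, 77.4, was at Nr1h2, which encodes liver X receptor beta, with 396 tags on 2072 bp. Anp32e, a chaperone of the histone variant H2A.Z, had 73.8, the remodeller gene Chd6 71.6, the beta-tubulin gene Tubb5 70.9 and the shared peak of Bap1, a deubiquitinase of histone H2A, and Phf7 70.2. The lowest fold, 10.7, was at the shared peak of Eif4enif1 and Sfi1, with 550 tags on 2813 bp, followed by 24.3 at a peak of Erbb3 and 24.8 at Nup107, all 3 picked after the values were seen. Only 469 of the 1196 dense peaks, 39.2%, were also among the 1196 compact peaks with the highest fold.

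Members near the bound were ordinary in their other values. Just inside it lay Tsc22d4 (673 tags on 3542 bp), Dbn1 (407 on 2142 bp), Tsku (477 on 2510 bp), Gtf2b (424 on 2231 bp) and Cadm1 (627 on 3299 bp). Just outside it lay Camkk2 (542 on 2853 bp), H2-DMa (623 on 3280 bp), Prcc (585 on 3080 bp), Csnk2a1 (490 on 2580 bp) and Drosha (417 on 2196 bp). A count 1 tag higher would have moved each of these 5 peaks inside. The longest dense peaks lay at Kmt2a, an H3K4 methyltransferase, with 4944 bp, at Mettl23, Mfsd11 and the splicing factor gene Srsf2 with 4942 bp, and at Trp53 and its antisense neighbour Wrap53 with 4931 bp. The shortest lay at Sf3a3 with 1199 bp, at Ufc1 and Usp21 with 1284 bp and at Psmc4 with 1286 bp. Of common reference genes, Actb had a peak of 3904 bp at 0.156 tags per bp and was not dense, and the peak of 5913 bp at Gapdh, Iffo1 and Ncapd2, at 0.183, was too long for the rule and also less dense.

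The number of coding genes at a peak was not used by the rule. Of the dense compact peaks, 387 of 1196 lay at 2 or more coding genes, 32.4% (29.7 to 35.1%), against 1458 of 8624 other compact peaks, 16.9% (16.1 to 17.7%), a difference of 15.5 percentage points. Within peaks of 2000 to under 3000 bp the shares were 34.8% (31.1 to 38.7%) and 19.3% (18 to 20.7%), and within those of 3000 to under 5000 bp 33.4% (29.0 to 38.0%) and 21.9% (19.6 to 24.3%). Below 2000 bp, with 130 dense peaks, they were 16.9% (10.9 to 24.5%) and 13.2% (12.2 to 14.3%), and these intervals overlapped. The intervals cover counting error over peaks of 1 library, and peaks are not replicates. With the same number of compact peaks taken by highest fold instead of density, the share was 24.5% and the difference 6.50 points. Without distal chromosome 10 they were 33.1% and 16.2 points.

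Where RefSeq windows gave a start inside the peak, 212 of 995 dense peaks, 21.3% (18.8 to 24.0%), held 2 coding starts that point away from each other within 1000 bp. For the other compact peaks a start inside was listed for 75.8% only, so their share was not compared. Wdr12 and Carf are 1 such pair. The median length of genes with a dense peak was 23672 bp, and that of the other marked genes 23427 bp. These medians include genes at shared peaks. At peaks with 1 coding gene and 1 listed start inside, the median gene length was 36532 bp for 559 dense peaks and 27283 bp for 4759 others. Those 2 values stand side by side without a comparison, for the same gap in listed starts.

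Of 5 classes of non-coding genes, 2 had ends at a larger share of dense peaks with intervals that lay apart. The snoRNA genes, many of which lie in introns of ribosomal protein genes, had an end at 21 dense peaks, 1.76% (1.09 to 2.67%), against 0.533% (0.391 to 0.711%) of the other compact peaks. The miRNA genes had one at 25 dense peaks, 2.09% (1.36 to 3.07%), against 1.01% (0.809 to 1.24%). Within bins of length the intervals lay apart for snoRNA genes only below 2000 bp, at 3 of 130 dense peaks (2.31%, 0.478 to 6.60%) and 4 of 3929 others (0.102%, 0.0277 to 0.260%), and for miRNA genes in no bin. From 3000 to under 5000 bp miRNA genes had ends at 1.83% (0.794 to 3.58%) and 1.93% (1.24 to 2.86%). The intervals overlapped for snRNA genes, at 0.251% and 0.313%, for tRNA genes, at 0.669% and 0.383%, and for long non-coding RNA genes, at 15.4% (13.4 to 17.6%) and 14.4% (13.7 to 15.2%).

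Promoter sequence was likewise not used by the rule. A RefSeq window of a coding gene assigned to the peak was found for 1019 dense peaks (85.2%) and 7041 others (81.6%), and the window nearest the summit was taken. Its start lay inside the peak for 995 dense peaks and 6541 others. The remaining windows had no limit on their distance from the peak and made up a larger part of the others. The CpG and motif values of both groups include them. The ratio of observed to expected CpG had a median of 0.866 (95% interval of the median 0.855 to 0.880) at the dense peaks and 0.790 (0.782 to 0.796) at the others. Over all 32851 RefSeq windows, which include none on chromosome 18, it was 0.384, and at coding genes with no peak at an end 0.224. Median GC content was 64.3% at the dense peaks and 62.3% at the others. A CpG ratio under 0.4 was rare at dense peaks, in 27 of 1019 windows (2.65%, 1.75 to 3.83%), against 549 of 7041 (7.80%, 7.18 to 8.45%). Below 2000 bp these shares were 1.92% (0.234 to 6.77%) and 11.3% (10.2 to 12.4%), and in the 2 bins of longer peaks their intervals overlapped.

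The difference in CpG ratio shrank with length. Below 2000 bp the medians were 0.822 (0.767 to 0.861) and 0.723 (0.714 to 0.732). From 2000 to under 3000 bp they were 0.870 (0.851 to 0.890) and 0.834 (0.825 to 0.842). From 3000 to under 5000 bp they were 0.875 (0.855 to 0.893) and 0.856 (0.841 to 0.872), with overlapping intervals. The overall difference of 0.0765 was 0.0353 when the bound was raised to 0.21 tags per bp, and 0.0808 without distal chromosome 10.

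The 10 motifs were searched as fixed letters on both strands of these windows, with N for any base, and no motif contains another. They were ETS (CCGGAAG), NRF1 (GCATGCGC), SP/KLF (GGGCGG), NFY (CCAAT), YY1 (AAGATGGC), CREB/ATF (TGACGTCA), the E-box (CACGTG), the TATA box (TATAAA), ZBTB33/BANP (TCTCGCGA) and AP-1 (TGANTCA). A match is a description of the letters and says nothing of binding. The ETS motif stood in 23.0% (20.4 to 25.7%) of windows at dense peaks, 18.2% (17.3 to 19.2%) at other compact peaks and 8.86% of all windows. The motif named here after ZBTB33 and BANP stood in 3.93% (2.82 to 5.31%), 1.97% (1.66 to 2.33%) and 0.995%. The YY1 motif stood in 6.77% (5.31 to 8.49%), 4.32% (3.85 to 4.82%) and 2.75%. The NFY motif went the other way, with 33.3% (30.4 to 36.3%) at dense peaks, 39.2% (38.0 to 40.3%) at the others and 37.4% of all windows.

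These differences varied with length. In peaks under 2000 bp, ETS stood in 30.8% (22.1 to 40.6%) of 104 dense windows and 17.0% (15.7 to 18.3%) of the others, and NFY in 18.3% (11.4 to 27.1%) and 39.2% (37.5 to 40.9%). From 2000 to under 3000 bp, with 539 dense windows, ETS stood in 26% (22.3 to 29.9%) and 20.8% (19.3 to 22.3%), with intervals that just touched, and NFY in 33.0% (29.1 to 37.2%) and 39.3% (37.5 to 41.1%), which lay apart. From 3000 to under 5000 bp, ETS stood in 16.5% (12.9 to 20.6%) and 15% (12.9 to 17.4%), and NFY in 37.8% (32.8 to 42.9%) and 38.6% (35.7 to 41.7%). ZBTB33/BANP and YY1 had intervals that lay apart below 2000 bp, at 4.81% (1.58 to 10.9%) and 1.07% (0.743 to 1.49%) for the first and 10.6% (5.40 to 18.1%) and 3.63% (3.00 to 4.34%) for the other, and overlapping intervals in both bins of longer peaks. The AP-1 motif stood in 2.45% (1.59 to 3.60%) and 3.96% (3.52 to 4.44%), below the 7.81% of all windows. The SP/KLF motif stood in 73.5% and 70.1%, NRF1 in 5.00% and 5.99%, CREB/ATF in 4.02% and 3.56%, the E-box in 9.13% and 10.6% and the TATA box in 5.40% and 6.15% of windows, all with overlapping intervals, as were those of AP-1. The shares over all windows were 35.7% for SP/KLF, 2.71% for NRF1, 1.79% for CREB/ATF, 7.15% for the E-box and 13.6% for the TATA box. The densest member with a match was Pym1 for ETS, SP/KLF and the TATA box, Myl6 and Myl6b for NFY and CREB/ATF, Eef1akmt3 and Mettl1 for the E-box, Cand1 for ZBTB33/BANP, Ptpn23 for NRF1, Szrd1 for YY1 and Yod1 for AP-1.

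**Figure D3:**
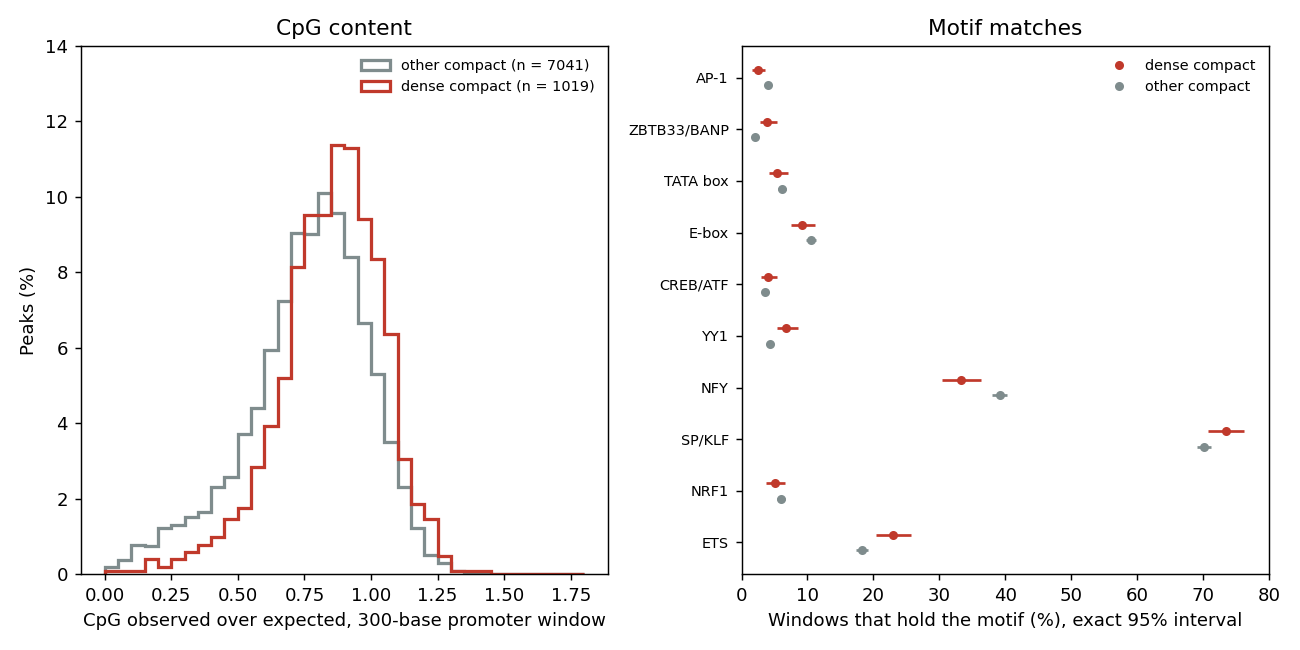
Left, the share of peaks (vertical axis, percent) by the ratio of observed to expected CpG in the 300-base promoter window for 1019 dense and 7041 other compact peaks; right, the share of these windows that hold each motif, with exact 95% intervals (lines). The dense peaks (red) have fewer windows of low CpG ratio, and their intervals lie apart from those of the others (grey) for ETS, YY1, ZBTB33/BANP and NFY.

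The mark lay mostly inside the gene. Among 559 dense peaks at 1 coding gene with 1 listed start inside, the summit lay at a median of 314 bp into the gene (291 to 339 bp) and downstream of the start in 87.8% (84.8 to 90.4%). Their downstream edge lay 1728 bp (1664 to 1786 bp) into the gene and their upstream edge 925 bp (886 to 959 bp) before it. For 4759 other compact peaks chosen the same way the medians were 224, 1297 and 722 bp, and 88.6% of summits lay downstream. Since a start inside was listed for fewer than 80% of the other peaks, these values stand side by side without a comparison. The median summit of the dense peaks lay 292 bp into the gene below 2000 bp of length, 288 bp from 2000 to under 3000 bp and 383 bp above that.

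**Figure D4:**
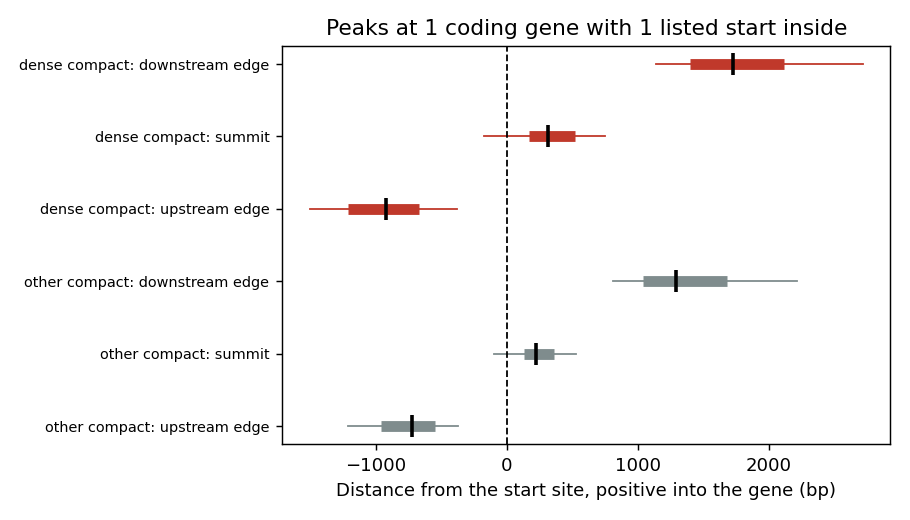
Distance in bp from the annotated start, positive into the gene, of the upstream edge, the summit and the downstream edge of peaks at 1 coding gene with 1 listed start inside, for 559 dense (red) and 4759 other (grey) compact peaks; thick bars span the quartiles, thin lines the 10th to 90th percentile and black ticks the median. The median summit of the dense peaks lies 314 bp into the gene.

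Functions were described with 40 gene lists. A gene counted as marked when it had any peak at an end, and the share of marked genes with a dense compact peak is set beside the 13.4% of all marked coding genes. These shares rest on the tags that chose the peaks, and the lists were drawn up with earlier results known, so they order the lists and test nothing. The exact 95% interval lay above 13.4% for 14 lists, below it for 2 and around it for 23, and no olfactory receptor gene was marked. The list median is the median, over a list's marked genes, of the density of each gene's densest peak, and was 0.154 tags per bp for all marked coding genes.

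Among genes of protein synthesis, the cytosolic ribosomal protein and initiation factor lists had intervals above the share of all marked genes. The synthetase and mitochondrial ribosomal protein lists had intervals that included it. Of 77 marked cytosolic ribosomal protein genes, 26 (33.8%, 23.4 to 45.4%) had a dense peak, and the median density of the list was 0.181. Rpl41 had 1003 tags on 3846 bp (0.261 tags per bp, shared with Zc3h10), Rps26 579 on 2329 bp (0.249) and Rps27a 627 on 2530 bp (0.248, shared with Clhc1), while Rpl3l, a muscle form, and Rpl18 had 0.106 and 0.112 tags per bp. Rpl41 and Rps26 lie on distal chromosome 10, and without it 24 of 75 genes remained. Of 51 translation initiation factor genes 17 (33.3%) had a dense peak, with a list median of 0.180. Eif1a had 0.221 tags per bp in a peak shared with Tmed7, Eif4a2, an RNA helicase of the cap-binding complex, 0.221 and Eif1ad 0.217 in a peak shared with Banf1. Aminoacyl-tRNA synthetase genes, which charge tRNAs with amino acids, had 7 of 36 (19.4%, 8.19 to 36.0%, list median 0.171), led by Mars1 on distal chromosome 10 (0.229), Qars (0.226, shared with Qrich1) and Eprs (0.215). Mitochondrial ribosomal protein genes had only 7 of 76 (9.21%, 3.78 to 18.1%), with Mrpl40 highest at 0.205 in a peak shared with Hira and a list median of 0.160.

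Lists of RNA synthesis, splicing and nuclear transport had shares from 16.7% to 37.9%. Of 29 SR and hnRNP genes, which choose splice sites, 11 (37.9%, 20.7 to 57.7%) had a dense peak, with a list median of 0.188. Srsf5 had 491 tags on 2248 bp (0.218 tags per bp), Hnrnpul1, in a peak shared with Axl, 0.213 and Srsf1 0.209, and Srsf12 had 0.0997. Among gene families of 10 or more marked members that share a symbol stem, Srsf, singled out after the values were seen, had the highest share, 7 of 11: Srsf1, Srsf2, Srsf3, Srsf5, Srsf6, Srsf7 and Srsf9. Of 67 spliceosome core genes 23 (34.3%, 23.2 to 46.9%, list median 0.177) had one, led by Sf3a2 (0.223, shared with Plekhj1) and Sf3a3 (0.222), subunits of the U2 particle, and Prpf4 (0.214, shared with Cdc26). Of 65 genes of RNA polymerase II and its general factors 18 (27.7%, list median 0.171) had one, with Taf9, in a peak shared with Ak6 and Rad17, at 0.226 and Gtf2h1, shared with Hps5, at 0.216. Nuclear pore and transport genes had 15 of 56 (26.8%, list median 0.166), led by Rangap1 (0.235), the activator of the Ran GTPase, Tnpo2 (0.222) and Tpr (0.211, shared with Odr4). Mediator subunits, which join factors to the polymerase, had 5 of 30 (16.7%, list median 0.169).

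Chromatin lists were spread over the order. Of 29 histone lysine methyltransferase genes 11 (37.9%, 20.7 to 57.7%) had a dense peak, led by Setd1a, the catalytic subunit of a SET1 complex that writes H3K4me3, with 608 tags on 2763 bp (0.220 tags per bp) in a peak shared with Orai3. Setd7 had 0.213 and Ehmt2, an H3K9 methyltransferase, 0.212 in a peak shared with Zbtb12, while Setdb1 had 0.103. The list median was 0.167, and under 4 of the 12 alternatives the interval included the share of all genes. The MLL genes Kmt2a, Kmt2b, Kmt2c and Kmt2d were members too and were named after their values were seen. Of 31 Polycomb genes, whose products write and bind H3K27 methylation or ubiquitinate H2A, 11 (35.5%, 19.2 to 54.6%) had one: Eed had 0.213, Aebp2 0.212 and Ezh2 0.211, and Asxl3 had 0.0771, with a list median of 0.180. Ezh2 counted in both lists. Genes of histone acetylation and deacetylation had 12 of 38 (31.6%, list median 0.184), led by Ing2 (0.225), Trrap (0.220) and Rcor1 (0.219). Remodeller genes had 10 of 44 (22.7%, list median 0.173), led by Smarcc2 (0.264) and Ino80 (0.246), and demethylase genes 4 of 17 (23.5%, list median 0.166), led by Kdm7a (0.207) and Kdm5b (0.207, shared with Mgat4e). The intervals of these last 2 lists included 13.4%.

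Lists of protein folding and turnover had shares from 15.6% to 27.8%. Chaperone genes had 13 of 51 (25.5%, 14.3 to 39.6%, list median 0.176), with Cct2 at 0.268 and the Hsp70 co-chaperones Bag4, in a peak shared with Lsm1, and Bag5, shared with Coa8, at 0.221 and 0.220. Proteasome genes had 10 of 36 (27.8%, 14.2 to 45.2%, list median 0.168), with the ATPase gene Psmc4 at 0.224, Psmd7 at 0.208 and the immunoproteasome gene Psmb9, in a peak shared with Tap1, at 0.206. The proteasome share was 16.7% when peaks were taken by fold. The interval stayed above the share of all genes under 8 of the 12 alternatives for chaperone genes and 7 of the 12 for proteasome genes. Genes of E2 ubiquitin-conjugating enzymes had 5 of 32 (15.6%), near the share of all genes. Mitosis genes had 15 of 61 (24.6%, 14.5 to 37.3%, list median 0.167), led by the centriole kinase Plk4 (0.221), the condensin gene Ncapd3 (0.221) and Cdc26 of the anaphase-promoting complex (0.214). Their interval stayed above the share of all genes under 8 of the 12 alternatives. DNA replication genes had 6 of 50 (12%, list median 0.151), led by Fen1 (0.222, shared with Tmem258), Mcm7 (0.211, shared with Ap4m1) and Cdc7 (0.208).

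Metabolic and membrane traffic genes lay between. Oxidative phosphorylation genes had 15 of 70 (21.4%, 12.5 to 32.9%, list median 0.17), led by Atp5b (0.275), Atp5j (0.243, shared with Gabpa) and Ndufs1 (0.216, shared with Eef1b2), and glycolysis and citrate cycle genes 7 of 38 (18.4%, list median 0.168), with Cs at 0.221 and Tpi1, shared with Usp5, at 0.214. Genes of vesicle coats, SNAREs and retromer had 17 of 76 (22.4%, 13.6 to 33.4%, list median 0.169), led by Cope (0.242, shared with Ddx49), Vps26b (0.221) and Cltc (0.212), and under 6 of the 12 alternatives the interval included the share of all genes. Vps26b and Ncapd3 share 1 peak, as do Cdc26 and Prpf4, so these lists are not fully separate. Rab GTPase genes had 10 of 49 (20.4%), autophagy genes 8 of 44 (18.2%) and solute carrier genes 21 of 208 (10.1%).

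Signalling genes of the growth factors in the medium were among the members. From the EGF and FGF receptors to MAPK, 13 of 49 marked genes (26.5%, 14.9 to 41.1%, list median 0.174) had a dense peak. Spred2, an inhibitor of Ras signalling, had 866 tags on 3874 bp (0.224 tags per bp). Erbb3, a receptor of the EGF family, had 2 dense peaks. The peak at Erbb3 alone had 423 tags on 1907 bp (0.222 tags per bp) at a fold of 24.3. The other, at the opposite end, had 684 tags on 2862 bp (0.239 tags per bp, fold 50.8). It was shared with the neighbour Pa2g4, and which of the 2 genes it belongs to was not tested. Mapk9 and Fgfr2 had 0.121 and 0.126. Erbb3 and the adaptor gene Frs2, named after its value was seen, lie on distal chromosome 10. Without it, 11 of 47 (23.4%) remained beside 12.9% of all genes, and the interval then included that share. Over the 12 alternatives, the interval of this list stayed above the share of all genes under 8. Immediate early genes had 5 of 31 (16.1%), with Zfp36l2 at 0.236, Junb, in a peak shared with Prdx2, at 0.231 and Fosb at 0.225. PI3K, Akt, mTOR and AMPK genes had 8 of 42 (19%), with Akt1s1, in a peak shared with Tbc1d17, at 0.208 and Foxo1 at 0.207. DNA repair genes had 9 of 64 (14.1%), with Mdm2 at 0.240.

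The progenitor, homeobox, neuronal and potassium channel lists had shares from 4.44% to 8.33%, with intervals that included 13.4%. Of 26 marked neural stem and progenitor genes only Msi2, an RNA-binding protein of neural stem cells, with 784 tags on 3989 bp (0.197 tags per bp), and Nr2e1, the orphan receptor Tlx, with 809 on 4204 bp (0.192), had a dense compact peak (7.69%, 0.946 to 25.1%), and the list median, 0.162, was above that of all genes. In the same list 12 of 26 genes (46.2%) had a peak of 5000 bp or more, which the rule leaves out, against 2.60% of all marked genes. Such long peaks were not particular to it. Immediate early genes had them at 8 of 31 genes (25.8%) and EGF and FGF receptor to MAPK genes at 10 of 49 (20.4%). SR and hnRNP genes had them at 5 of 29 (17.2%), and neuronal and potassium channel genes at 0. Homeobox genes had 5 of 65 (7.69%, 2.54 to 17.0%, list median 0.124), with Otx1 at 0.212 and the shared peak of Hoxa5 and Hoxa6 at 0.208, and 10 of 65 (15.4%) had a peak of 5000 bp or more. Neuronal genes had 2 of 24 marked genes (8.33%, 1.03 to 27.0%), Ncam1 (0.252) and Camk2b (0.191), with a list median of 0.110. Potassium channel genes had 2 of 45 (4.44%, 0.543 to 15.1%), Kcnmb4 and Kcnh6, the second in a peak shared with Dcaf7, with a list median of 0.0894, and Kcnmb4 lies on distal chromosome 10; without it 1 of 43 (2.33%) remained, and the interval then lay below the share of all genes.

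The 2 lists below the share of all genes were zinc finger genes named Zfp or Zscan, with 28 of 335 (8.36%, 5.63 to 11.9%), and clustered replication-dependent histone genes, with 1 of 60 (1.67%, 0.0422 to 8.94%). Their median densities were 0.146 and 0.105. The 1 histone gene was H4f16, on chromosome 6, with 383 tags on 1981 bp (0.193 tags per bp). Many clustered histone genes have similar coding sequences, so some reads may not be placed uniquely among them. The part of read placement in their densities was not tested. The 11 marked genes of other brain cell types held no dense peak, and 0 of 11 has an interval up to 28.5%.

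**Figure D5:**
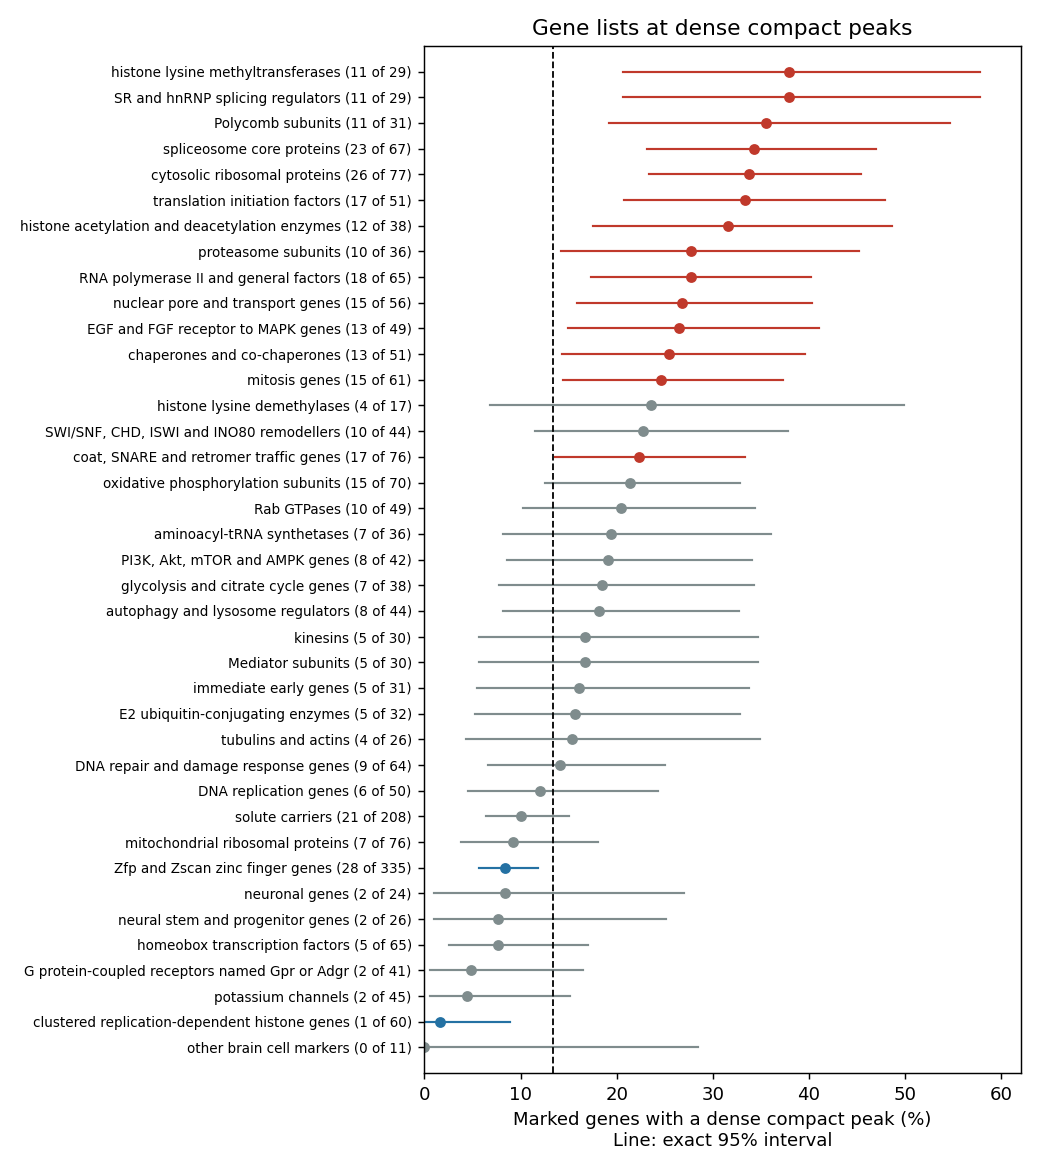
Share of each list's marked genes that have a dense compact peak (points, percent) with its exact 95% interval (lines), ordered by share, for the 39 lists with a marked gene; the dashed line is the 13.4% of all marked coding genes, and red and blue mark intervals above and below it. Histone lysine methyltransferases and SR and hnRNP genes, both at 37.9%, stand at the top, and the histone list at 1.67% and the list of other brain cell markers at 0 stand at the bottom.

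The labelled cell type was checked with marker genes. Of 8 neural progenitor markers 6 had a peak at an end, with a median fold of 41.4, and Pax6 and Msi1 had none there. Among all 20665 coding genes on chromosomes 1 to 19, 11941 had a peak at an end, with a median fold of 39.8. With so few markers, the counts do not settle the cell type. Of the markers on chromosomes 1 to 19, 1 of 3 neuron markers, 0 of 3 astrocyte markers, 1 of 3 oligodendrocyte markers, 1 of 4 microglia markers and 1 of 4 endothelium markers had one. The oligodendrocyte, microglia and endothelium peaks had folds of 10.9, 7.88 and 13.3, and the neuron peak 38.3. No marker of these cell types had a dense compact peak at an end. A dense compact peak, of 3057 bp at 0.212 tags per bp and a fold of 52.1, lay over Msi1 away from its listed ends and is no member, and the part of other cells in the members was not tested.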

How the data were processed

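H3K4me3 was profiled by chromatin immunoprecipitation and sequencing in 1 library of adult neural progenitor cells, with 1 input library as background. Per the file headers, the authors called peaks with MACS 1.4.2 against the input at a p cutoff of 1e-05, an effective genome size of 1.87e+09 bp and 1 tag kept per position. Build mm10 and MACS2 2.1.0 are named per the submitters' processing notes; no aligner is named in the sources used here. The deposited list gives, per the file headers, the tag count of each peak, not normalized, a score made from the log10 of its p-value, a ratio to the input called fold enrichment, and an estimated false discovery rate, as percent. The deposited score is capped near 3100, which 1128 dense compact peaks and 2364 other compact peaks reached. Tag density was computed as tags over length.

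Peaks were joined to the RefSeq gene table of GRCm38.p6 (20665 coding genes on chromosomes 1 to 19) by overlap of at least 1 bp with 1000 bp either side of a gene's ends, with Python 3.11.15 and pandas 2.3.3. Motifs and CpG content came from RefSeq promoter windows of 300 bases. Exact binomial intervals (Clopper-Pearson, scipy 1.17.1) and order-statistic intervals of medians cover counting error only; tags amplified by PCR are not independent molecules. The join and the density rule were tested on simulated peaks. With 1 library no test was made. The alternatives changed the density bound, the window, the length range, the p-value bound, the set of genes, the ranking measure and the inclusion of distal chromosome 10. The members and lists were chosen with earlier results of these data known. Genes were named by rules: the 10 densest members and the 5 of highest fold, the 5 just inside and just outside the bound, the 3 longest and 3 shortest, in each list up to 3 densest members and up to 2 least dense marked genes, the densest member for each motif, the printed promoters, and Actb and Gapdh; others are said to have been chosen after their values were seen. Some genes that these rules name are not reported here.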

Additional observations from a re-analysis of the deposited data

Results flagged for a closer look

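On chromosomes 1 to 19, 104 peaks met the length and density rule but lay at no coding gene end, and the comparisons above leave them out. The same length and density bounds chose them and the members, so a like signal describes the choice. Their fold enrichment ranged from 11.7 to 68.7 with a median of 48.4, against 48.5 at the members. Of these 104 peaks, 81 lay over a coding gene away from its listed ends, 17 lay at the end of a non-coding gene only and 6 lay at neither. Starts inside a gene are not listed in the gene table, and their number among the 81 was not tested. Outside these chromosomes, 1 more dense compact peak was listed, on an unplaced contig.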

How the results depend on the processing

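The counts moved with the bound, as its construction makes them: at 0.17 tags per bp there were 2901 dense peaks at 3664 genes, 26.9% of the peaks lay at 2 or more coding genes (11.5 points above the others) and 5 lists lay below the share of all marked genes. At 0.21 there were 351 peaks at 472 genes, the median CpG ratio was 0.834 (0.0353 above the others), and 3 lists lay above and 0 below. With the summit required inside the window, 29.0% lay at 2 or more genes. For lengths under 3000 bp there were 759 peaks at 1007 genes, with 7 lists above and 1 below. With a -log10 p of at least 100, 8 lists lay above. Peaks at 1 coding gene only left 809 genes, with 1 list below, and gave no share at 2 or more genes. Ranked by fold, an alternative chosen after seeing the data like the one without distal chromosome 10, 24.5% lay at 2 or more genes (6.50 points above the others) and 5 lists lay below; the cause was not tested. The difference in shared ends and in CpG ratio kept its sign under every alternative that gave a value. Of 468 list shares under the 12 alternatives, 78 left the interval of the share given above. The intervals of the Polycomb list and of the nuclear pore and transport list stayed above the share of all genes under 9 of the 12. No paired analysis was possible because there is 1 H3K4me3 library. With 1 library, spread between cultures is unknown, and a gene without a peak had none called at this depth.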
